A study of Mus musculus with 4 samples.

Results

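Rif1 and 7 genes for proteins that bind it or work beside it were followed on 4 microarrays of mouse embryonic stem (ES) cells. The members were Rif1 itself, the 3 genes for the catalytic subunit of protein phosphatase 1 (PP1), which are Ppp1ca, Ppp1cb and Ppp1cc, and 4 DNA repair genes, Trp53bp1, Mad2l2, Blm and Paxip1. Every probe on the array that carries one of these 8 gene names was taken, whatever its values, which gave 13 probes of 8 genes among 39429 probes of 30199 gene names. Rif1, Ppp1ca, Blm and Paxip1 had 1 probe each, Ppp1cb, Trp53bp1 and Mad2l2 had 2 each, and Ppp1cc had 3.

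The cells were E14tg2a, a feeder-free line of mouse ES cells grown in serum with leukemia inhibitory factor, the cytokine that keeps them undifferentiated. An untreated culture (0 h), a culture given control siRNA for 72 h, a culture given Rif1 siRNA for 48 h and one given Rif1 siRNA for 72 h were each measured on 1 array. The knockdown was transient and left the Rif1 gene in place. Rif1 siRNA was a mixture of 2 duplexes, and no 48 h control was measured, so the 48 h array could be set only against a control harvested later.

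Rif1 is a large nuclear protein that binds PP1 and brings it to chromatin, where the phosphatase removes phosphates that the replication kinases add to the MCM helicase and so holds back late origins. At broken DNA, Rif1 is recruited by phosphorylated 53BP1 (Trp53bp1) and, with Rev7 (Mad2l2), blocks the resection of DNA ends. Rif1 also associates with the BLM helicase, and PTIP (Paxip1) is a parallel effector of 53BP1. In mouse ES cells Rif1 is abundant and is known as a repressor of genes of the two-cell embryo.

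The sequences that define the perturbation are the 2 duplexes, given without their overhangs. The antisense strand is the one that pairs with the Rif1 transcript, and its seed, bases 2 to 8, is in capitals. According to the methods NC#1 lies in the 3′ untranslated region of Rif1.
Rif1 siRNA #2 sense: gaaggagccucuagggaaa
Rif1 siRNA #2 antisense: uUUCCCUAgaggcuccuuc
Rif1 siRNA NC#1 sense: guguucaaccuuaaaugca
Rif1 siRNA NC#1 antisense: uGCAUUUAagguugaacac
Neither 19-base site was found on either strand in any of the 39429 probes, so no probe, that of Rif1 included, holds a whole siRNA site; overlaps with part of a site were not searched.

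The probes that read the members are 60 bases long, and 4 of the 13 hold AATAAA, the common polyadenylation signal, on the strand of the transcript. That motif was present in 4965 of the 39429 probes (12.6%), and its reverse complement TTTATT was in 1590 (4.03%) of all probes and in 1 of the 13. A stretch of 30 bases of each of the 4 probes is shown, since it places these measurements near a possible 3′ end of the transcript; the motif is in capitals and the coordinates are those of build mm9.
Rif1, chr2:51977534-51977563, plus strand: tctttatctacaAATAAAgcaacagatagt
Ppp1ca, chr19:4195384-4195413, plus strand: tctggtctcttgAATAAAggtcaaagctgg
Trp53bp1, probe A_66_P139355, chr2:121022710-121022739, minus strand: tagtaagtgttcAATAAAccccggttacac
Mad2l2, probe A_55_P1966863, chr4:147519754-147519783, plus strand: tgcgttattgttAATAAAgtggccccaagg
Whether these letters act as a signal was not tested.

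A level here is the background-corrected spot signal divided by the 75th percentile of all signals on the same array, so a level of 1 is that of a probe at the 75th percentile. All 13 probes passed the filter on dim signals, none was saturated or flagged as an outlier, and 11 were well above background on all 4 arrays. With 1 array for each condition there is no spread between replicates and no test could be made. The error of each value was read in a pair of other ways. The scanner software attaches an error to each spot, which for bright probes came to 0.204 on the log2 scale for a difference between 2 arrays. Intervals below are 1.96 times that error. For the bright member probes the error was 0.144 on every array, so their intervals have nearly the same width whatever the spot. Probes printed 10 times on each array and well above background had a median SD of 0.0621 to 0.0670 among their spots, so the software's error was the wider of the pair. Neither covers the variation between cultures.

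Between 58.8% and 74.1% of spots were well above background, and the share was higher on both arrays of Rif1 siRNA (71.5% and 74.1%) than on the others (58.8% and 62.8%). The summed level of 17 probes of ES cell markers was 343 in untreated and 344 in control cells, beside 350 (48 h) and 332 (72 h) in those with Rif1 siRNA, a sum to which Dppa5a alone gave 118 to 145. None of the 17 passed 2-fold with Rif1 siRNA against control or in control against untreated cells. Among them Pou5f1 was 1.51-fold higher than control at 72 h. The brightest Nanog probe was 1.20-fold higher at 48 h and 1.22-fold at 72 h. Another Nanog probe was 1.42-fold and 1.37-fold higher, while a dim one was at -0.54 and -0.69 on the log2 scale. At 72 h 9 of the 17 were below 0, with a median of -0.03, and at 48 h 6 of the 17, with a median of 0.09. Fibroblast markers summed to between 3.86 and 4.50 over 6 probes, most of it from Thy1 (3.11 to 3.50). Against control their median was 0.41 at 72 h, with 1 of 6 below 0, and 0.53 at 48 h, with 1 of 5 below 0. None of them passed 2-fold. Col1a1 and Col1a2 were 1.76-fold and 1.77-fold higher than control at 72 h of Rif1 siRNA, and 1.44-fold and 1.46-fold at 48 h. Pdgfra went the other way, at -0.27 at 72 h and -0.22 at 48 h. Primitive endoderm markers summed to between 1.60 and 2.67 over 8 probes. All 7 of them with a value were below control at 72 h (median -0.21) and lower in control than in untreated cells (median -0.51), while their median at 48 h was 0.24. Trophoblast markers summed to between 0.310 and 0.553 over 6 probes. Of the 5 with a value, Cdx2 and Gata3 were over 2-fold higher than control at 72 h of Rif1 siRNA (2.11-fold and 2.86-fold). The share of all probes over 2-fold higher there was 3.02%. At 48 h Gata3 was 3.60-fold and Cdx2 1.44-fold higher, and in control against untreated cells Cdx2 was 1.45-fold higher while the other 4 trophoblast probes with a value were lower. These sums compare arrays and not one list with another. Genes of the two-cell state summed to 12.1 in untreated and 20.8 in control cells, beside 260 (48 h) and 300 (72 h) with Rif1 siRNA, over 16 probes, and 15 of the 16 were over 2-fold higher than with control siRNA at 48 h and at 72 h, against 3.39% and 3.02% of all probes. In control against untreated cells 5 of 11 of them with a value were over 2-fold higher, at a median of 0.88, against 0.684%. The part of these differences between cultures in the values of the 8 genes was not tested.

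Rif1 transcript was lower on both arrays of Rif1 siRNA, more at 48 h than at 72 h. Its probe (A_55_P2015964, chr2:51977508-51977567, plus strand) had a level of 5.55 in untreated cells and 5.42 in control cells, and of 2.15 after 48 h and 4.15 after 72 h of Rif1 siRNA. Untreated and control cells lay close together, the 48 h culture was far below both, and the 72 h culture was in between. A bulk sample cannot tell fewer cells with the transcript from less transcript in each cell.

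Against control siRNA, the level at 48 h fell by 1.34 on the log2 scale (interval -1.74 to -0.94), which is 60.4% lower. The background for such a change was 1.27% of 25899 probes over 2-fold lower. Of 24266 probes measured on both arrays, 0.507% were at least as low as Rif1. Among the 4794 with a level above 5 in control cells, a limit chosen after the values were seen, only 3 probes were, Rif1 included.

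At 72 h the difference from control siRNA was -0.39 (interval -0.79 to 0.01), so the level was 23.5% lower and its interval reached 0. Rif1 did not pass 2-fold there, where 1.07% of 25887 probes were over 2-fold lower. Of all probes measured on both arrays 6.16% were at least as low, and 1.52% of those with a level above 5. For scale, control siRNA and untreated cells differed by -0.03 for Rif1, and the SD of that comparison over 22548 probes was 0.256. Among the 4794 probes with a level above 5 in control cells, as that of Rif1 was, the SD was 0.106. Set against untreated cells the Rif1 values were -1.37 at 48 h and -0.42 at 72 h, the latter with an interval of -0.82 to -0.02 that did not reach 0.

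The change from 48 h to 72 h of Rif1 siRNA was the widest step in its order of levels. Rif1 was 1.93-fold higher at 72 h than at 48 h, a log2 difference of 0.95 (interval 0.55 to 1.35), and 0.476% of 27521 probes rose at least as far. In the order untreated, control siRNA, Rif1 siRNA 72 h, Rif1 siRNA 48 h, this last step was the one neighbouring pair whose difference exceeded its interval. For comparison, 238 probes were over 2-fold lower at 48 h than in control cells and measured on all 3 arrays concerned. Their median difference at 72 h was -1.19, 103 of them were within 2-fold of control by then, and 17 rose from 48 h to 72 h as far as Rif1 or farther. The 2 cultures are separate samples, so this is a difference between cultures and not a course within one.

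**Figure D1:**
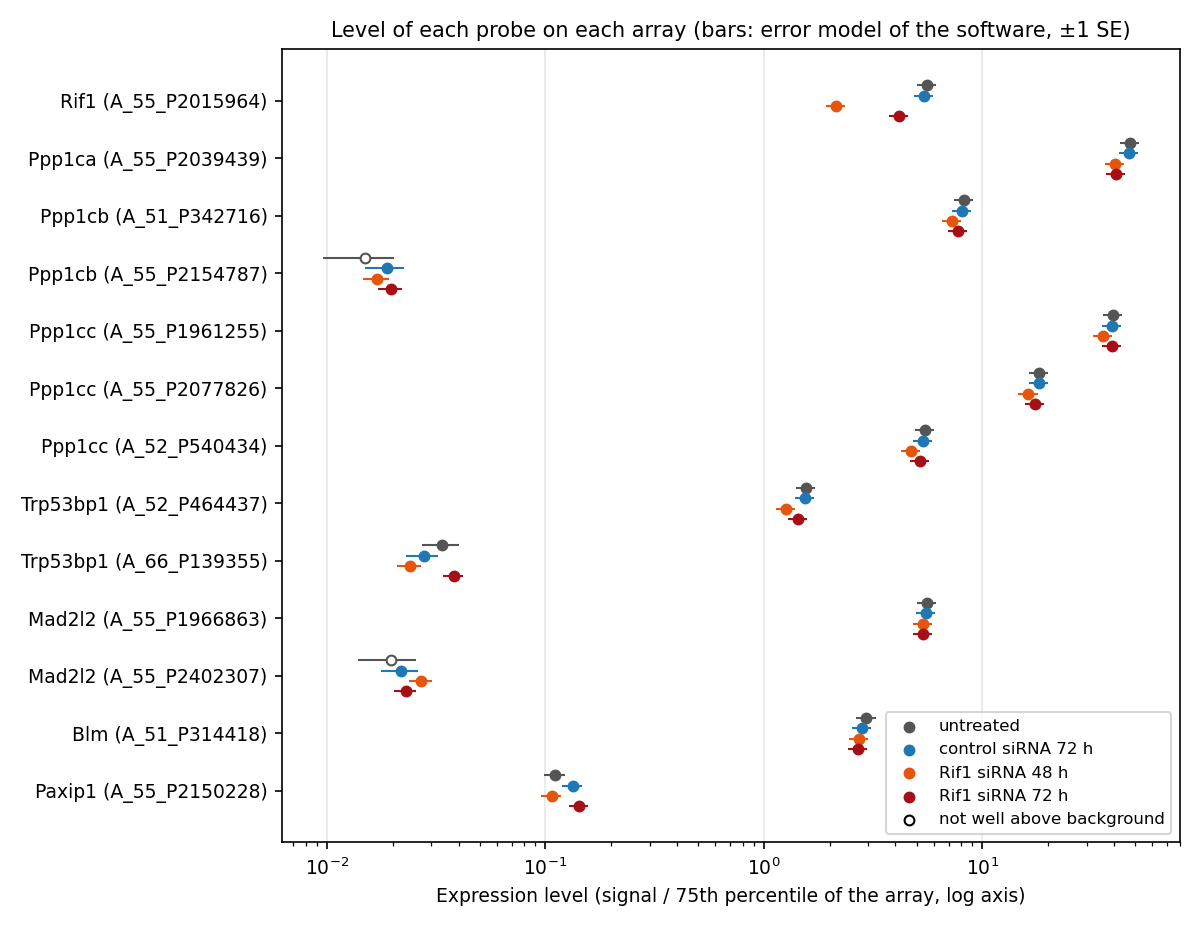
Level of each of the 13 probes (signal divided by the 75th percentile of its array, log axis) on the 4 arrays, with bars of 1 error of the scanner software and open circles where a spot was not well above background. Rif1 stands at 5.55, 5.42, 2.15 and 4.15, while for the bright partner probes the 4 points lie close together; probes of different genes cannot be ranked by level.

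The 5 probes whose pattern over the 4 arrays was most like that of Rif1, out of 19883 with a gene symbol and well above background on every array, belonged to Ccdc64b, Hes5, Parl, Pcyox1l and Il12rb1. Likeness was the root mean square difference between log2 levels centred on each probe's mean, and it ran from 0.0688 for Ccdc64b to 0.118 for Il12rb1. Parl, which encodes a rhomboid protease of the inner mitochondrial membrane, had levels of 8.79, 8.70, 3.01 and 5.87 in the order untreated, control, Rif1 siRNA 48 h and 72 h. Hes5, a transcriptional repressor downstream of Notch, had 0.159, 0.164, 0.0551 and 0.114. Both fell deepest at 48 h and stood between that value and control at 72 h, as Rif1 did. Since this measure counts size as well as order, and a probe at the same level on every array would score 0.553, the partners were separated from Rif1 by the size of their differences: they ran from a probe of Trp53bp1 at rank 1617 with 0.429 to the bright probe of Mad2l2 at rank 9526 with 0.529. In order alone, a count added after the values were seen, 7 of the 10 partner probes measured on every array had the sequence of Rif1 (untreated highest, then control, then 72 h, then 48 h), namely those of Ppp1ca, Ppp1cb (bright), Ppp1cc (all 3), Trp53bp1 (bright) and Mad2l2 (bright), against 11.4% of 22518 probes and 14.3% of the 9658 with a level above 1. The steps between neighbouring arrays in these 7 were all inside the software's interval. The count was 6 of 10 with normexp, against 13.5% of all probes, and 5 of 10 with quantile normalization, against 11.2%. A likeness or order over 4 arrays is a description of these arrays.

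No probe of the 7 partner genes passed a 2-fold change. Of 12 partner probes, 0 were over 2-fold higher or lower than with control siRNA at 72 h, against 4.10% of 25887 probes in either direction. At 48 h the count was again 0 of 12, against 4.66% of 25899 probes, and in control against untreated cells it was 0 of the 10 with a value, beside a background of 1.88% of 23697. From 48 h to 72 h of Rif1 siRNA it was 0 of 12, where 1.13% of 27671 probes passed 2-fold. A share of 0 of 12 is close to what those backgrounds would put among so few probes. At a threshold of 1.5-fold the counts against control were 0 as well, where 10.8% of all probes passed at 48 h and 8.44% at 72 h. The comparison of control with untreated cells is the one measure of how far the partners differ without Rif1 siRNA.

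Ppp1ca, the alpha isoform of the PP1 catalytic subunit, was the bright partner with the lowest value at 72 h. Its probe (A_55_P2039439, chr19:4195360-4195419) had levels of 47.3 in untreated cells and 47.0 in control cells, and of 40.5 after 48 h and 40.9 after 72 h of Rif1 siRNA. Both Rif1 siRNA arrays were below both others, and untreated and control cells were nearly equal. The log2 difference from control siRNA was -0.22 at 48 h (interval -0.62 to 0.18) and -0.20 at 72 h (interval -0.60 to 0.20). Bright probes in general were shifted: the 1536 probes with a level above 30 in control cells had a median of -0.16 at 48 h and -0.18 at 72 h, and 19.1% of them at 48 h and 38.7% at 72 h were at least as low as Ppp1ca. Under quantile normalization those medians were -0.03 and -0.02, and Ppp1ca was at -0.11 and -0.08.

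Ppp1cb, the beta isoform, which also forms myosin phosphatase, was read by a bright and a dim probe 1217 bases apart. The bright probe (A_51_P342716, chr5:32794896-32794955) had levels of 8.21, 8.09, 7.24 and 7.75 in the order untreated, control, Rif1 siRNA 48 h and 72 h. Against control siRNA these are log2 differences of -0.16 at 48 h and -0.06 at 72 h, each within the interval of the software's error. The dim probe (A_55_P2154787, chr5:32796113-32796172) had 0.0149, 0.0188, 0.0169 and 0.0196, of which the untreated value was not well above background. Its differences of -0.15 and 0.06 carry errors of 0.359 and 0.345, so it adds little to the bright probe.

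Ppp1cc, the gamma isoform, was read by 3 probes within 1 kb of chromosome 5, and they gave the same order of arrays. Probe A_55_P1961255 (chr5:122625222-122625278) had levels of 39.5, 39.2, 35.7 and 39.1 in the order untreated, control, Rif1 siRNA 48 h and 72 h. Probe A_55_P2077826 (chr5:122624996-122625055) had 18.2, 18.1, 16.3 and 17.4. Probe A_52_P540434 (chr5:122624307-122624366) had 5.47, 5.32, 4.72 and 5.17. In all 3 the 48 h array was lowest, by -0.13, -0.16 and -0.17 from control siRNA. At 72 h the differences were -0.01, -0.05 and -0.04. Under quantile normalization the first turned to 0.12, the second to 0.03 and the third to -0.00413, and under normexp the third was at -0.05. The first probe shares 33 bases in a row with an array entry named NAP001627-002, which moved alike, by -0.19 and -0.05, and signal shared between them cannot be told apart. The other 2 shared no run of 16 bases with another probe.

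**Figure D2:**
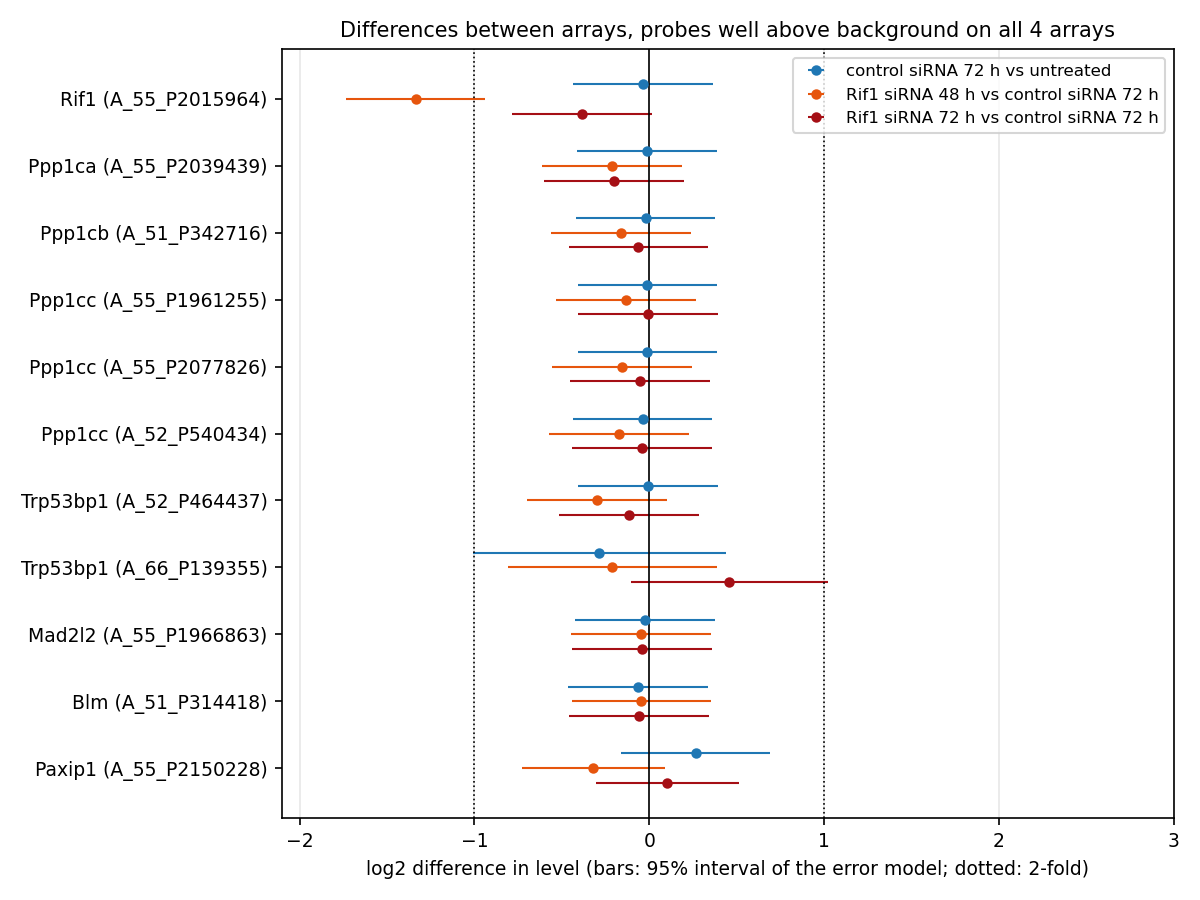
Log2 difference in level for the 11 probes measured on all 4 arrays, with bars of 1.96 times the software's error and dotted lines at 2-fold. Rif1 at 48 h (-1.34) is the one value whose bar lies wholly beside 0, while the partner values for Rif1 siRNA run from -0.32 to 0.46 and their bars cross 0.

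Trp53bp1, which encodes 53BP1, was the partner with the lowest bright value at 48 h. Its bright probe (A_52_P464437, chr2:121024792-121024851, minus strand) had levels of 1.55 in untreated cells and 1.55 in control cells, and of 1.26 after 48 h and 1.43 after 72 h of Rif1 siRNA. The first pair was nearly equal and both Rif1 siRNA arrays were lower. The log2 difference from control was -0.30 at 48 h (interval -0.70 to 0.10), where 13.1% of all measured probes and 8.66% of those with a level above 1 were at least as low, and -0.12 at 72 h. A second probe 2086 bases away (A_66_P139355, chr2:121022706-121022765), the one whose sequence is shown above, was dim, at 0.0337, 0.0277, 0.0239 and 0.0380. It disagreed with the bright probe at 72 h, where it was 0.46 above control (interval -0.11 to 1.02), and it was 0.67 higher at 72 h than at 48 h (interval 0.20 to 1.14). With normexp, a background correction that compresses dim signals, its value at 72 h was -0.01.

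Mad2l2, which encodes Rev7, a subunit of shieldin and of DNA polymerase zeta, was read by a bright and a dim probe. The bright probe (A_55_P1966863, chr4:147519745-147519804) had levels of 5.60, 5.50, 5.32 and 5.34 in the order untreated, control, Rif1 siRNA 48 h and 72 h. The whole range of this probe was 0.0723 on the log2 scale, the smallest of the 12 partner probes, and the differences from control siRNA were -0.05 at 48 h and -0.04 at 72 h. This probe shares a run of 16 bases with one for Gm10603, which was not well above background on any array. The dim probe 5677 bases away (A_55_P2402307, chr4:147514068-147514127) had 0.0197, 0.0219, 0.0269 and 0.0229. The first of these was not well above background, so the 48 h level can only be called at least 0.19 above the untreated one. The highest was at 48 h, 0.30 above control with an error of 0.332.

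Blm, the RecQ helicase that dissolves double Holliday junctions with topoisomerase III alpha, had levels of 2.95, 2.82, 2.74 and 2.71 in the same order (A_51_P314418, chr7:87600243-87600302, minus strand). It was the one bright partner with its lowest level at 72 h rather than 48 h. The steps were small, with differences from control siRNA of -0.04 at 48 h and -0.06 at 72 h, beside -0.06 between control and untreated cells. The values with Rif1 siRNA were thus no farther from control than the untreated value was.

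Paxip1, which encodes PTIP, a protein with several BRCT domains found with 53BP1 and with the MLL3 and MLL4 methyltransferases, was read by 1 probe of low level (A_55_P2150228, chr5:28067232-28067291, minus strand). Its levels were 0.111 in untreated cells and 0.133 in control cells, and 0.107 after 48 h and 0.143 after 72 h of Rif1 siRNA. High and low values did not follow the treatment, since the untreated and the 48 h array were low and the control and the 72 h array high. The difference from control was -0.32 at 48 h (interval -0.73 to 0.09) and 0.10 at 72 h, beside 0.27 between control and untreated cells. From 48 h to 72 h it rose by 0.42 (interval 0.02 to 0.83), and 3.64% of all measured probes rose at least as far. Under normexp the 72 h difference from control was 0.00249. The probe shares a run of 16 bases with an entry named AK158358, which did not follow it and was at 0.27 at 48 h and 0.02 at 72 h.

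As a group, 8 of the 10 partner probes measured on every array were lower on both Rif1 siRNA arrays than on both others, and 0 of 10 were higher on both. Taking the brightest probe of each gene, 6 of 7 genes were lower, Paxip1 being the exception. Among all 22518 probes measured on every array 43.3% had that order and 18.1% the opposite one. Brighter probes as a class were shifted the same way: with a level above 1 the median of 9658 probes was -0.11 at 48 h and -0.11 at 72 h, and the 8 partner probes of that level had medians of -0.16 and -0.06. The count was 9 of 10 with normexp, where 53.6% of all probes had that order, and 6 of 10 with quantile normalization, where 41.2% did.

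At 48 h all 10 partner probes were below control siRNA, against 62.0% of all probes. They stayed below with normexp and with quantile normalization. The deposited ratios repeat the main scaling and no member spot was flagged as an outlier, so those settings could not change this. Of the 9658 probes with a level above 1 in control cells, 66.4% were at least as low at 48 h as Blm (-0.04), against 54.4% of all measured probes. At 72 h 8 of 10 were below, against 64.1%, with 9 of 10 under normexp, against 73.4%, and 6 of 10 under quantile normalization, against 63.4%. There 76.0% of the probes with a level above 1 were at least as low as probe A_55_P1961255 of Ppp1cc (-0.01), against 62.2% of all measured probes. Probes of that level, as 8 of the partner probes were, were thus below control more often than 62.0% and 64.1%. From 48 h to 72 h of Rif1 siRNA, 9 of 10 rose, against 48.7% of all probes, by a median of 0.11 over the 12 probes beside -0.01 over all probes. Blm was the exception, at -0.02. Apart from Paxip1 and the dim probe of Trp53bp1 none of these rises exceeded the software's interval, and the same 48 h array enters all of them. Probes of 1 gene share their transcript, so the 10 probes are fewer than 10 independent values.

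**Figure D3:**
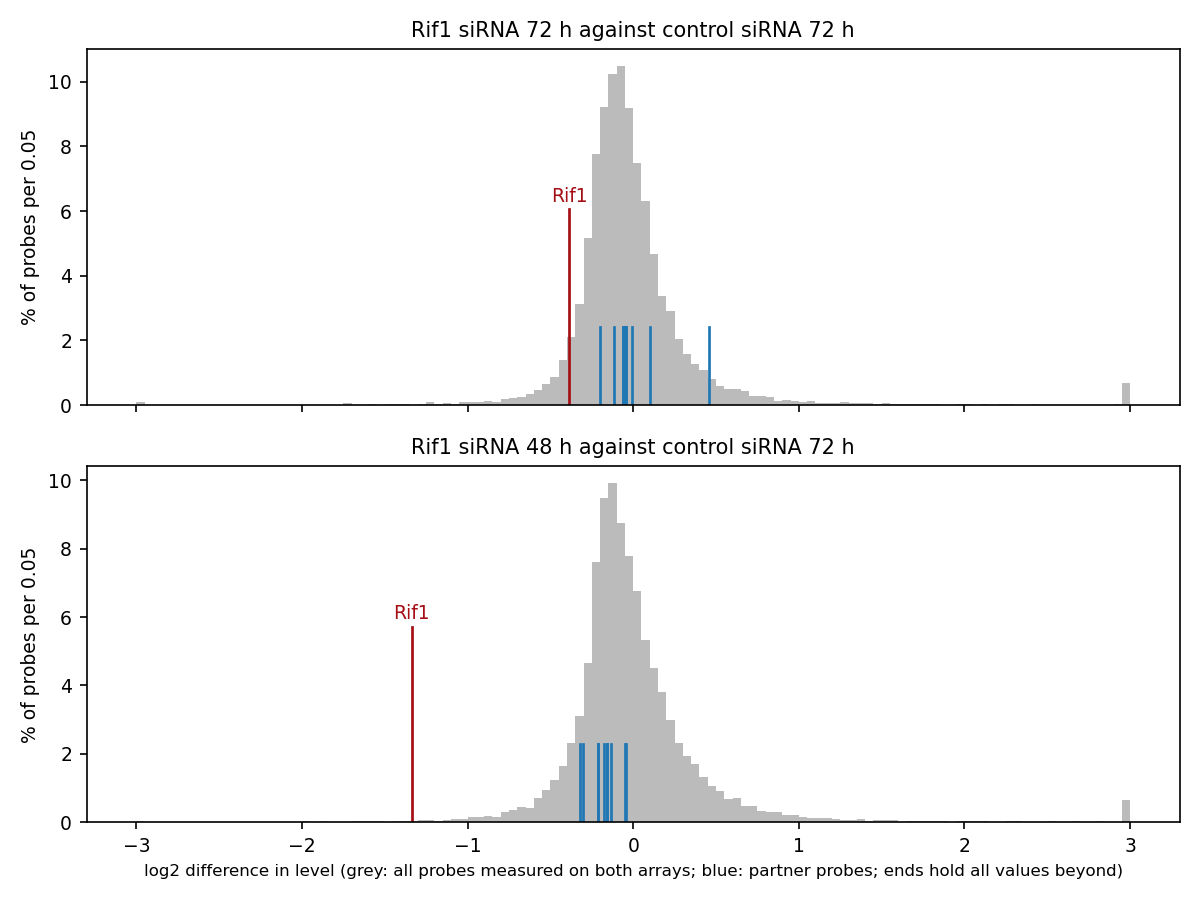
Distribution of log2 differences from control siRNA over all probes measured on both arrays (grey, per cent of probes per 0.05), with Rif1 as a red line and the partner probes measured on all 4 arrays as blue lines. At 48 h Rif1 (-1.34) stands outside the bulk and the partners run from -0.32 to -0.04; at 72 h Rif1 (-0.39) lies in the lower flank, with 6.16% of probes at least as low.

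The wider pathways of these proteins were then read through 6 lists of 145 probes, of which 137 passed the filter. At 72 h 0 of 137 were over 2-fold higher or lower than with control siRNA, and at 48 h again 0 of 137, against the 4.10% and 4.66% of all probes given above. The median over the lists was -0.06 at 72 h and -0.08 at 48 h, near the -0.07 of all measured probes at either time. Shld3 was not among the names on the array.

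PP1 reaches its substrates through regulatory subunits and scaffolds, which compete for the same catalytic subunits as Rif1. Their 40 probes had a median of -0.03 at 72 h and -0.08 at 48 h. The lowest at 72 h was a probe of Tox4, which forms a PP1 complex with PNUTS and Wdr82, at -0.34, while its second probe was at -0.05. The highest measured on both arrays was Ppp1r3d, a glycogen-targeting subunit, with levels of 0.0534, 0.0530, 0.0799 and 0.0799, a difference of 0.59 at either time. A dim probe of Casc5, the kinetochore scaffold KNL1, was at least 1.56-fold higher at 72 h, and the brighter Casc5 probe was at 0.08.

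A list of origin factors held the Cdc7 kinase and its activator Dbf4, the MCM proteins, Mcm10, Cdc45, Cdt1, Ticrr and the GINS subunits. Its 19 probes had a median of -0.13 at 72 h and -0.19 at 48 h. Of the 19, 15 and 16 were below 0, against 64.1% and 62.0% of all probes. Bright probes were shifted the same way: the 4794 with a level above 5 in control cells had a median of -0.14 at either time. In control against untreated cells, with no Rif1 siRNA, 15 of the 19 were also below 0, at a median of -0.07, against 52.4% of all probes. Gins3, a subunit of the GINS complex of the replicative helicase, was lowest at 72 h, at -0.24. Ticrr, which encodes treslin, a factor that helps load Cdc45 at origins, was highest at 72 h with both of its probes. The brighter one had levels of 4.49 in untreated cells and 3.99 in control cells, and of 7.36 after 48 h and 5.07 after 72 h of Rif1 siRNA, and the dimmer one 0.107, 0.0966, 0.165 and 0.123. Both probes were thus highest at 48 h, by 0.88 and 0.77 over control, and by 0.35 and 0.34 at 72 h. Dbf4, the activating subunit of the Cdc7 kinase, was at -0.22 at both times.

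In the 53BP1 pathway and shieldin list, 25 probes had a median of -0.15 at 72 h, with 21 below 0, and of -0.10 at 48 h, with 18 below 0, against 64.1% and 62.0% of all probes. The lowest at 72 h was a probe of Shld2, a shieldin subunit listed on the array as Fam35a, with levels of 0.227, 0.229, 0.193 and 0.154. That is -0.24 at 48 h and -0.57 at 72 h, and the second Shld2 probe went the same way, at -0.20 and -0.31. Dynll1, a dynein light chain that binds 53BP1, was highest at 72 h, at 0.45 from a dim probe. H2ax, the histone variant phosphorylated at breaks and listed as H2afx, was chosen after its values were seen: its levels were 35.0, 34.9, 18.7 and 24.9, which is -0.90 at 48 h and -0.48 at 72 h. Like Rif1, it was lowest at 48 h and stood between that value and control at 72 h.

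The BLM complex and the other RecQ helicases, listed together with Fancm, Fanca, Fancd2 and the RPA subunits, had a median of -0.06 at 72 h and -0.03 at 48 h over 19 probes. Rmi2, an OB-fold subunit that stabilises the complex, was lowest at 72 h, with levels of 0.171, 0.161, 0.118 and 0.120, a difference of -0.43 at 72 h and -0.44 at 48 h. Wrn, the helicase lost in Werner syndrome, was highest at 72 h, at 0.22. The bright probe of Top3a, the topoisomerase that works with Blm, was 0.40 above control at 48 h and -0.02 at 72 h.

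Paxip1's complex with MLL3 and MLL4 had a median of -0.09 over 13 probes at 72 h and 0.11 at 48 h. Dpy30, a core subunit of MLL complexes, was lowest at 72 h. Its 2 probes gave -0.27 each at 72 h and -0.28 and -0.31 at 48 h. Pagr1a, which binds PTIP directly, had levels of 23.4, 23.2, 18.6 and 20.2, and was lowest at 48 h, at -0.32. Kmt2d, one of the methyltransferases and listed as Mll2, was highest at 72 h with 1 of its 3 probes, at 0.34. The genes of end resection and homologous recombination, the process that Rif1 and 53BP1 hold back, had a median of 0.06 over 21 probes at 72 h and -0.05 at 48 h. At 72 h Mre11a, the nuclease of the MRN complex, was lowest at -0.23, and Bard1, the partner of Brca1, highest at 0.27 with 1 of its 3 probes.

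**Figure D4:**
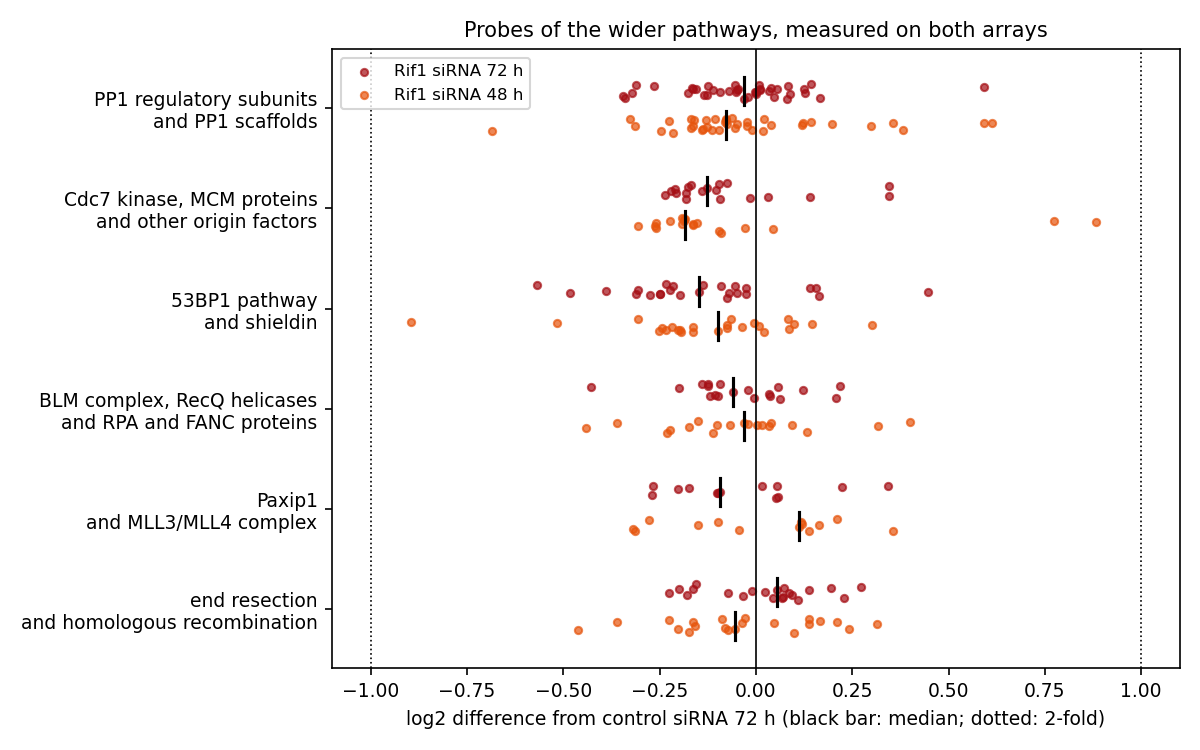
Log2 difference from control siRNA for each probe of the 6 pathway lists that was measured on both arrays, at 72 h (red) and 48 h (orange) of Rif1 siRNA, with black bars at the medians and dotted lines at 2-fold. All points lie between the dotted lines, the nearest being H2ax (-0.90) and Ticrr (0.88) at 48 h.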

How the data were processed

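RNA from 4 cultures of E14tg2a cells was labelled with Cy3 and hybridised to 4 one-colour Agilent mouse arrays on 1 slide, 1 array per condition. The authors processed the scans with Agilent Feature Extraction 11.5.1.1, called the scanner software above. They deposited intensity values per spot (background-corrected processed signal, its error, raw mean and background). Their deposited value table holds a ratio of each signal to its array's 75th percentile, and was used as an alternative. A second experiment named in the methods was not analysed here. Probe positions are those of the scanner files (mm9); no transcript or genome was used, so exon and UTR positions of probes are not given.

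From the processed signals, log2 levels were taken relative to the 75th percentile of each array, leaving out control and outlier spots and averaging repeated spots. A probe was kept where its signal reached the 20th percentile on at least 1 array and was detected or flagged as compromised on at least 2 of 4, which left 27780 probes. A probe not well above background on 1 of 2 arrays was given as a bound, with its dim signal raised, where lower, to that array's faintest level that counted as well above background. A call was a change over 2-fold, and its share is of probes with a fold or bound. No p-value was computed. Python 3.11.15, pandas 2.3.3, numpy 2.4.6, R 4.3.3 and limma 3.58.1 were used, and the script was tested on simulated data.

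Alternatives were quantile normalization, normexp (offset 50), the deposited ratios in place of the signals, outlier spots kept, untreated cells as control, other filters, thresholds of 1.5-fold and 4-fold, and dim signals as given. Named genes were the members, the highest and lowest of each pathway list at 72 h with any over 2-fold, and the 5 probes most like Rif1; others named in the lists were chosen after their values were seen. The members, lists and level limits were chosen with earlier results of these data known. Genes were matched by the array's name or by the RefSeq symbol of the probe's accession, found for 27508 probes.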

Additional observations from a re-analysis of the deposited data

Results flagged for a closer look

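With 1 array at each time, 3 partner probes lay above control siRNA at one time of Rif1 siRNA and below it at the other, which is the reason they are given here; the difference between times was not tested. The dim probe of Trp53bp1 was at 0.46 at 72 h and -0.21 at 48 h on the log2 scale. The probe of Paxip1 was at 0.10 at 72 h and -0.32 at 48 h. The dim probe of Ppp1cb was at 0.0601 at 72 h and -0.15 at 48 h. With quantile normalization the signs stayed opposite for Trp53bp1 (0.35 and -0.34) and Paxip1 (0.05 and -0.40). They also stayed opposite for all 3 with the deposited ratios and with outlier spots kept. Those settings were no separate check, since the ratios repeat the main scaling and no spot of these probes was flagged. The Ppp1cb probe was below 0 at 72 h with normexp (-0.19) and with quantile normalization (-0.0894), the Trp53bp1 probe was at -0.01 with normexp, and Paxip1 was near 0, at 0.00249, with normexp. All 3 probes are of low level, and the control array is shared by both comparisons.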

How the results depend on the processing

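The count of probes over 2-fold at 72 h, 1061, was 533 with normexp, 2186 at 1.5-fold and 447 at 4-fold. The other 53 of 56 values of the main comparisons tried under alternatives, the 0 counts of partner probes included, stayed within their limit. That limit was 0.256 for a log2 value and 1.5 times for a count, and none of the 53 values reversed a called direction. Some could not move: a count of 0 at 2-fold is 0 at 4-fold, no member spot was flagged, and the deposited ratios repeat the scaling. For single probes 94 of 96 stayed within the limit, which was wider than most bright partner differences from control. Ppp1ca at 72 h, from -0.20 to -0.08, and a Ppp1cc probe, from -0.01 to 0.12, counted as within it under quantile normalization. The dim probe of Trp53bp1 at 72 h moved to -0.01 and the dim probe of Mad2l2 at 48 h to 0.02, both with normexp. The cause was not tested. Rif1 lay between -0.36 and -0.42 at 72 h and between -1.31 and -1.37 at 48 h. Probes near background, 1 each of Ppp1cb, Trp53bp1 and Mad2l2, limit what can be said of small differences. No paired analysis was possible because no group had a second array.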
